A study of Drosophila melanogaster with 164 samples.

Results

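DGRP703 is 1 of the 41 inbred lines of Drosophila melanogaster in this study, which measured polyA RNA of whole larvae and whole adults. All lines belong to the Drosophila Genetic Reference Panel, a collection of wild-derived, inbred lines whose flies of 1 line are nearly identical in genotype. Line DGRP703 is represented by 4 of the 164 libraries, 2 from larvae and 2 from adults, chosen by the line name in the labels. Each stage of DGRP703 was compared with the same stage of the other 40 lines. The labels name no treatment, transgene or engineered allele for any line, and the groups differ by inbred genotype. Adults had matured for 4 days after a 48-hour collection, and the labels give no sex for either stage. Each library is a pool of 2 to 31 animals from 2 vials, so its value is an average over bodies and, in adults, possibly over sexes.

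Transcript levels differ between inbred fly lines for many genes. Well-known examples are the genes of digestive enzymes, which act in the gut lumen on starch, sugars and protein, and those of the enzymes that break down foreign compounds. Among the latter are cytochromes P450, glutathione S-transferases and UDP-glycosyltransferases. A difference seen in larvae and again in adults was measured on separate animals with very different bodies, because the gut, fat body, muscle and skin of the adult are rebuilt at metamorphosis.

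The larval columns of DGRP787 replicate 1 and DGRP491 replicate 2 hold identical counts and were left out, which left 78 larval and 80 adult libraries of the other lines. DGRP703 had 7508441 and 16645168 counts in its larval libraries and 13206006 and 15394433 in its adult libraries. The other lines had a median of 10533564 counts in larvae and 8561732 in adults. Over the 500 genes that varied most between adults of the lines, each larval DGRP703 library was closer to the DGRP703 adults than to the adults of any other line. Pearson's r across those genes was 0.477 for replicate 1 and 0.441 for replicate 2, against 0.18 and 0.132 for the next line. By the same measure 76 of 80 larval libraries were closest to adults of their own line. The 4 exceptions were replicate 1 of DGRP367 and replicate 2 of DGRP882, DGRP897 and DGRP911. Among the last 3, replicate 2 of DGRP882 was closest to DGRP911 adults, that of DGRP897 to DGRP882 adults and that of DGRP911 to DGRP897 adults. Without these 3 larval libraries the number of genes that differed in DGRP703 larvae was 334 in place of 289. The RNA lncRNA:roX1, made in males, had 233 and 156 CPM (counts scaled by library total) in DGRP703 larvae against 43.9 to 678 with a median of 209.8 in the other lines, and 975 and 966 CPM in adults against 266 to 1628 with a median of 854. This marker of sex composition was not called at either stage.

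At an adjusted p under 0.05, 289 of 7414 genes (3.9%) differed between DGRP703 and the mean of the other lines in larvae, and 484 (6.53%) in adults. The test was edgeR's quasi-likelihood F test with Benjamini-Hochberg adjustment over all 7414 genes, and its error is the spread between replicates of a line. A call therefore says that DGRP703 departed from the average line by more than replicate error, not that it lay outside the range of the lines. In larvae 218 genes (2.94%) were higher and 71 (0.958%) lower, and in adults 289 (3.9%) were higher and 195 (2.63%) lower. Differences of at least 2-fold were found for 112 genes in larvae and 69 in adults. DGRP703 was not unusual in this: each line tested the same way gave between 59 and 1153 genes in larvae and between 225 and 2448 in adults. DGRP703 ranked 12th of 41 lines in larvae and 16th in adults. In whole bodies, fewer cells of a type and less RNA per cell cannot be told apart.

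The stages shared 71 genes (0.958% of all genes) that differed in the same direction at both, which is 24.6% of the larval and 14.7% of the adult genes. Of these, 47 were higher and 24 lower in DGRP703. That excess of higher genes depended on the tool, since limma-trend gave 28 higher and 28 lower genes at both stages, DESeq2 47 and 36, and a fit of 2 groups without line 5 and 7. The median absolute log2 fold change of the 71 was 1.30 in larvae and 0.81 in adults, against 0.19 and 0.13 over all genes, and 59 of the 71 had the larger value in larvae. One further gene, Prat2, differed in opposite directions. Of 217 genes called in larvae alone, 167 had the same sign in adults, and of 412 called in adults alone, 263 had the same sign in larvae. No such share over all genes is given here, so these counts are not a measure of effects shared between stages. The difference between the larval and the adult effect, tested itself, was called for 96 genes (1.29%). Among these, 38 were called in larvae alone and 43 in adults alone, and only such genes are described as differing at 1 stage.

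**Figure D1:**
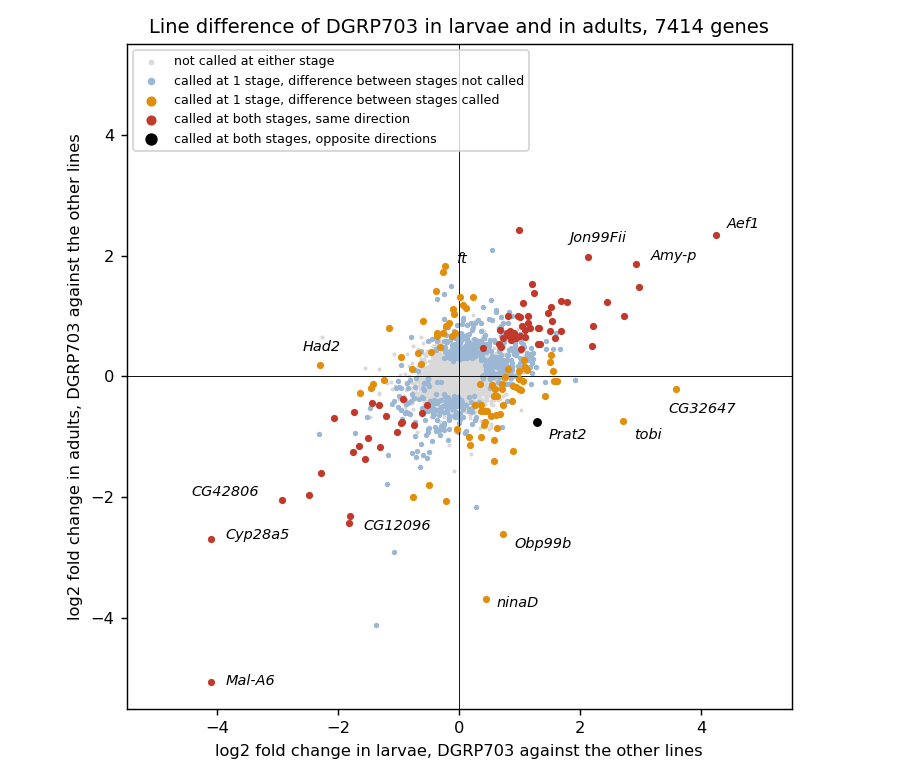
Log2 fold change of DGRP703 against the mean of the other lines in larvae (horizontal axis) and in adults (vertical axis), 1 point a gene for 7414 genes, coloured by the stages at which the gene was called and by whether the difference between stages was called. Aef1 and Mal-A6 lie far out on the diagonal, with larval and adult values of 4.25 and 2.34 and of -4.11 and -5.05, while CG32647, tobi and ninaD lie near an axis.

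Of the 71 genes, 17 were still called at both stages whichever DGRP703 replicate was left out, 8 of them higher and 9 lower. The higher genes were Aef1, su(f), Akt, Jon99Fii, Ugt36A1, CG15695, CG31370 and Vha100-4. The lower genes were Mal-A6, CG42806, CG11892, CG12096, Cyp4ac1, Sod3, Pgant1, Trax and alpha-Man-IIa. Without replicate 1 the total fell to 26 genes at both stages, and without replicate 2 to 22, so most of the 71 calls needed both libraries of a stage. For a stricter description, genes were counted in which both DGRP703 libraries lay outside every library of every other line. There were 28 such genes in larvae (0.378%) and 33 in adults (0.445%), and 10 genes stood outside on the same side at both stages.

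Aef1 stood furthest above the other lines. It encodes a zinc finger protein known as a repressor that binds fat body enhancers such as that of alcohol dehydrogenase. It lies at 3L:21433422-21438639, on the forward strand of the BDGP6 assembly. In larvae, DGRP703 had 593 and 495 CPM and the other lines 18.4 to 42.7 with a median of 28.4. In adults, it had 319 and 257 CPM against 43.0 to 73.7 with a median of 56.6. Both pairs were several times above the highest of the other libraries of their stage. The log2 fold change was 4.25 ± 0.12 in larvae (edgeR adjusted p = 1.04e-30) and 2.34 ± 0.08 in adults (edgeR adjusted p = 9.60e-27). The effect was smaller in adults by 1.91 on the log2 scale, a difference between stages that was itself called (edgeR adjusted p = 7.76e-09). Aef1 overlaps CG5664 on the opposite strand, and the strand setting of the counting is not given in the sources used here, so reads of the 2 genes may not be separated. The same limit holds for Cyp4s3, Ugt49B1, ND-15, Trax, Vha100-4, CG10182, Lsd-1, tobi, Mcad, RpL39 and Alp4, each of which overlaps an annotated gene on the opposite strand, and for armi and Tsp42Ej, which overlap one on their own strand.

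The gene su(f), whose product is part of the complex that cleaves the 3′ ends of messenger RNAs, lies at X:23096771-23101431, on the forward strand. DGRP703 larvae had 123 and 171 CPM and the others 34.5 to 54.8 with a median of 42.9. DGRP703 adults had 93.8 and 83.5 CPM and the others 27.0 to 48.7 with a median of 37.9. The DGRP703 libraries lay above all others at both stages, in a gene whose level was otherwise narrow. On the log2 scale the fold change was 1.78 ± 0.09 in larvae and 1.24 ± 0.09 in adults (edgeR adjusted p = 3.46e-20 and 2.46e-15). The smaller adult value gave a called difference of -0.55 ± 0.15 between stages, which was lost without replicate 2 (edgeR adjusted p = 0.976), where the difference was -0.19.

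Akt encodes the protein kinase through which the insulin receptor acts on growth and metabolism, and lies at 3R:16099228-16105670, on the forward strand. In larvae it had 232 and 253 CPM in DGRP703 against 60.2 to 129.6 with a median of 84.8 in the other lines. Adults had 302 and 345 CPM against 99.3 to 261 with a median of 143. Every DGRP703 library exceeded every other library of its stage, although in adults the lower DGRP703 value was near the highest of the others. Against the mean line, the log2 fold change was 1.51 ± 0.14 in larvae (edgeR adjusted p = 2.08e-11) and 1.14 ± 0.12 in adults (edgeR adjusted p = 1.45e-09). No difference between stages was called.

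Mal-A6, a maltase gene whose enzyme family splits maltose and other alpha-glucosides in the gut, had the largest negative change of the 71 genes in adults and, with Cyp28a5, in larvae. It lies at 2R:8465158-8467595, on the forward strand. DGRP703 had 7.52 and 5.93 CPM in larvae against 11.0 to 694 with a median of 104 in the others, and 24.6 and 23.9 CPM in adults against 40.9 to 2771 with a median of 799. All 4 values lay under every other library of the stage, and replicates were close to each other. The other lines varied widely, and the line closest to DGRP703 from above was DGRP362 at both stages. Fitted to the counts, the log2 fold change was -4.11 ± 0.60 in larvae (edgeR adjusted p = 4.99e-06) and -5.05 ± 0.36 in adults (edgeR adjusted p = 2.46e-15).

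CG12096, CG42806 and CG11892 were each below all other libraries at both stages. CG12096 (X:13159604-13162854, on the forward strand) had 8.12 and 8.47 CPM in larvae against 21.7 to 42.3 with a median of 29.3, and 8.76 and 6.20 CPM in adults against 25.9 to 54.7 with a median of 39.7. Its log2 fold change was -1.83 ± 0.16 in larvae and -2.43 ± 0.12 in adults (edgeR adjusted p = 7.82e-12 and 1.22e-20), and it overlaps Lgr4 on the opposite strand, with the same limit on reads. CG42806 (2R:13964653-13965455, on the forward strand) had 3.31 and 2.93 CPM against 14.2 to 37.8 with a median of 24.0 in larvae and 4.19 and 3.32 CPM against 10.8 to 23.5 with a median of 15.0 in adults. All 4 DGRP703 values lay well below the other libraries, and the gene shares its strand and part of its span with CtsL1. Relative to the mean line, its log2 fold change was -2.93 ± 0.21 in larvae and -2.04 ± 0.18 in adults (edgeR adjusted p = 2.04e-14 and 5.71e-12).

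CG11892 (3R:25281548-25283237, on the forward strand) belongs to the ecdysteroid kinase-like family, whose insect members have been linked to steroid hormone storage and detoxification. It had 55.7 and 45.7 CPM against 89.2 to 566 with a median of 299 in larvae and 98.6 and 93.4 CPM against 126 to 851 with a median of 368 in adults. The groups did not overlap at either stage. In log2 units, the change was -2.48 ± 0.24 and -1.97 ± 0.26 (edgeR adjusted p = 2.86e-10 and 3.85e-07). The family members CG31370 and CG10560 went the other way. CG31370 had 78.1 and 90.5 CPM in larvae against 6.32 to 116 with a median of 45.3 and 38.4 and 39.0 CPM in adults against 4.21 to 52.5 with a median of 21.3, inside the range of the other lines. In log2 units its change was 1.13 ± 0.18 and 1.00 ± 0.16. CG10560 had log2 fold changes of 1.16 ± 0.24 and 0.80 ± 0.20. CG11892 and CG10560 are among 11 tested genes within 20 kb of CG31370. Of these 11, only they were called at both stages, while 1 was called in adults and not in larvae and 8 at neither stage. The larval call of CG10560 ended without replicate 2 (edgeR adjusted p = 0.281), and its adult call without either (0.125 and 0.268).

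The last 3 of the 10 genes act in the extracellular space or the Golgi. Sod3, which encodes an extracellular superoxide dismutase, lies at 2R:11380347-11384114, on the reverse strand and had 52.6 and 41.9 CPM in DGRP703 larvae against 100.5 to 247 with a median of 164 and 42.9 and 46.4 CPM in adults against 74.9 to 136 with a median of 106. For this gene the log2 fold change was -1.76 ± 0.17 and -1.24 ± 0.12 (edgeR adjusted p = 2.86e-10 and 8.60e-11). None of the other libraries came down to the DGRP703 level of this gene. Pgant1, an enzyme that begins O-linked glycosylation of proteins, lies at 2R:15511710-15515597, on the forward strand and had 26.9 and 29.7 CPM against 40.7 to 145 with a median of 90.4 in larvae and 14.9 and 15.2 CPM against 24.9 to 48.1 with a median of 33.1 in adults. On the log2 scale its change was -1.65 ± 0.28 and -1.15 ± 0.11 (edgeR adjusted p = 8.62e-05 and 2.93e-11). alpha-Man-IIa, a Golgi mannosidase that trims N-linked sugar chains, lies at 3R:9412548-9417264, on the forward strand. It had the smallest change of the 10, with 16.5 and 18.2 CPM against 20.5 to 40.3 with a median of 29.4 in larvae and 34.4 and 35.0 CPM against 41.9 to 78.2 with a median of 60.9 in adults. Its log2 fold change was -0.75 ± 0.14 and -0.81 ± 0.11 (edgeR adjusted p = 0.000416 and 7.08e-07).

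**Figure D2:**
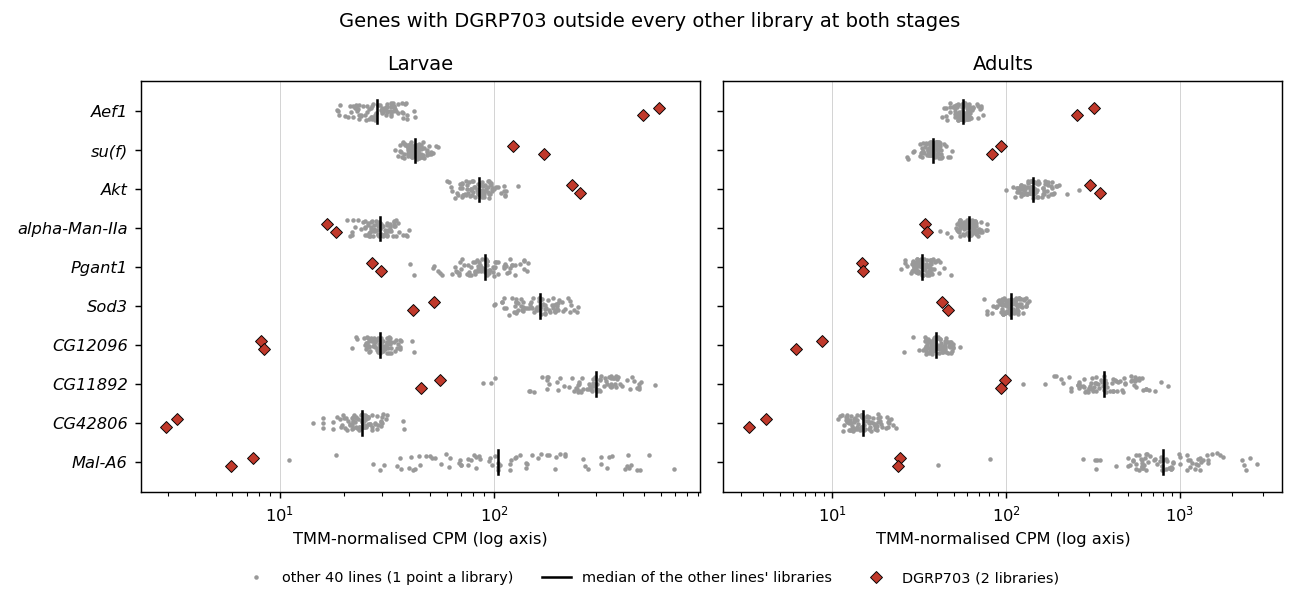
Level of the 10 genes in which both DGRP703 libraries lay outside every other library at both stages, in TMM-normalised CPM on a log axis, for larvae (left) and adults (right). Each grey point is 1 library of the other 40 lines, the bar is their median and the diamonds are the 2 DGRP703 libraries, with Aef1 at 593 and 495 CPM in larvae and Mal-A6 at 24.6 and 23.9 CPM in adults at the outer ends.

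Genes listed under carbohydrate digestion were mostly called higher in DGRP703 larvae and mixed in adults. Of 10 such genes in the table, 6 were higher and 1 lower in larvae, and 2 were higher and 2 lower in adults, against 2.94% higher and 0.958% lower of all genes in larvae and 3.9% and 2.63% in adults. The median log2 fold change of the list was 1.00 in larvae and -0.07 in adults, against -0.02 and -0.01 over all genes. Of the higher larval calls, only those of Amy-p and Amy-d held with either DGRP703 replicate left out. The higher larval genes also include LManI and LManII, whose enzymes are lysosomal. The amylase genes Amy-p and Amy-d, whose enzymes cut starch, were higher at both stages. Amy-p had 370.2 and 310.5 CPM in larvae against 3.66 to 456 with a median of 49.7 and 943 and 733 CPM in adults against 11.3 to 1200.2 with a median of 242. Amy-d had 332 and 292 CPM in larvae against 3.52 to 324 with a median of 43.3 and 457 and 459 CPM in adults against 13.4 to 682 with a median of 199.6. The DGRP703 values of both were high but within the range of the other lines, except for 1 larval library of Amy-d that exceeded all others. The log2 fold change was 2.92 ± 0.41 in larvae and 1.86 ± 0.34 in adults for Amy-p (edgeR adjusted p = 2.53e-06 and 0.000143), and 2.97 ± 0.40 and 1.48 ± 0.32 for Amy-d (edgeR adjusted p = 1.27e-06 and 0.00162). The adult calls ended without replicate 1 for Amy-p (edgeR adjusted p = 0.0594) and without either replicate for Amy-d (0.079 and 0.104). The amylase genes are neighbours of nearly identical sequence, so the reads of one may be counted in the other, and their values are uncertain as separate genes.

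Beside the amylases, Mal-A6 and tobi, 4 genes of the list were called. The maltase gene Mal-A4 had a log2 fold change of 1.91 ± 0.45 in larvae (edgeR adjusted p = 0.00571) and -0.07 ± 0.32 in adults, where it was not called. The lysosomal mannosidase genes LManI and LManII were called higher in larvae, at 1.00 ± 0.24 and 1.01 ± 0.25. The larval call of Mal-A4 ended without replicate 2 (edgeR adjusted p = 0.588), and those of LManI and LManII without either replicate (from 0.103 to 0.329). Mal-B2, another maltase gene, was 0.57 ± 0.18 in larvae, where it was not called (edgeR adjusted p = 0.0543), and -1.40 ± 0.28 in adults (edgeR adjusted p = 0.000463). Without replicate 2 the adult adjusted p of Mal-B2 was 0.0629. The difference of Mal-B2 between stages was called (-1.97 ± 0.32, edgeR adjusted p = 2.94e-05). In DGRP703 adults Mal-B2 had 65.6 and 65.4 CPM, below every other adult library (69.0 to 739 with a median of 148). The summed level of the list was 2521 and 2289 CPM in DGRP703 larvae, within the 672 to 3741 CPM of the other lines. In adults it was 4345 and 4109 CPM, against 2354 to 12862.

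Most called digestive serine protease genes were higher. Of 19 genes, 4 were higher and none lower in larvae, and 5 were higher and 1 lower in adults, beside the 3.9% and 6.53% of all genes called. The median log2 fold change was 0.49 in larvae and 0.13 in adults. Among the higher genes, only Jon99Fii kept its calls with either DGRP703 replicate left out. Jon99Fii, a member of the Jonah family of gut proteases, had 4045 and 3408 CPM in larvae against 24.0 to 7341 with a median of 916, and 237 and 219 CPM in adults against 1.69 to 455 with a median of 60.5. Both pairs lay in the upper part of a very wide range. Relative to the mean line, its log2 fold change was 2.12 ± 0.33 in larvae and 1.98 ± 0.27 in adults (edgeR adjusted p = 1.27e-05 and 6.50e-07). The trypsin gene lambdaTry was higher in larvae (1.22 ± 0.28), a call that replicate 2 carried: it had 139.9 and 341 CPM, and without replicate 2 the edgeR adjusted p was 0.878. Jon99Ci, of the same family as Jon99Fii, was lower in adults. Its DGRP703 adults had 1.75 and 8.82 CPM against 2.01 to 613 with a median of 112, a log2 fold change of -4.11 ± 0.77 (edgeR adjusted p = 0.000205), and without replicate 1 the adjusted p was 0.0578. Its larval value was -1.37 ± 0.52 and was not called.

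**Figure D3:**
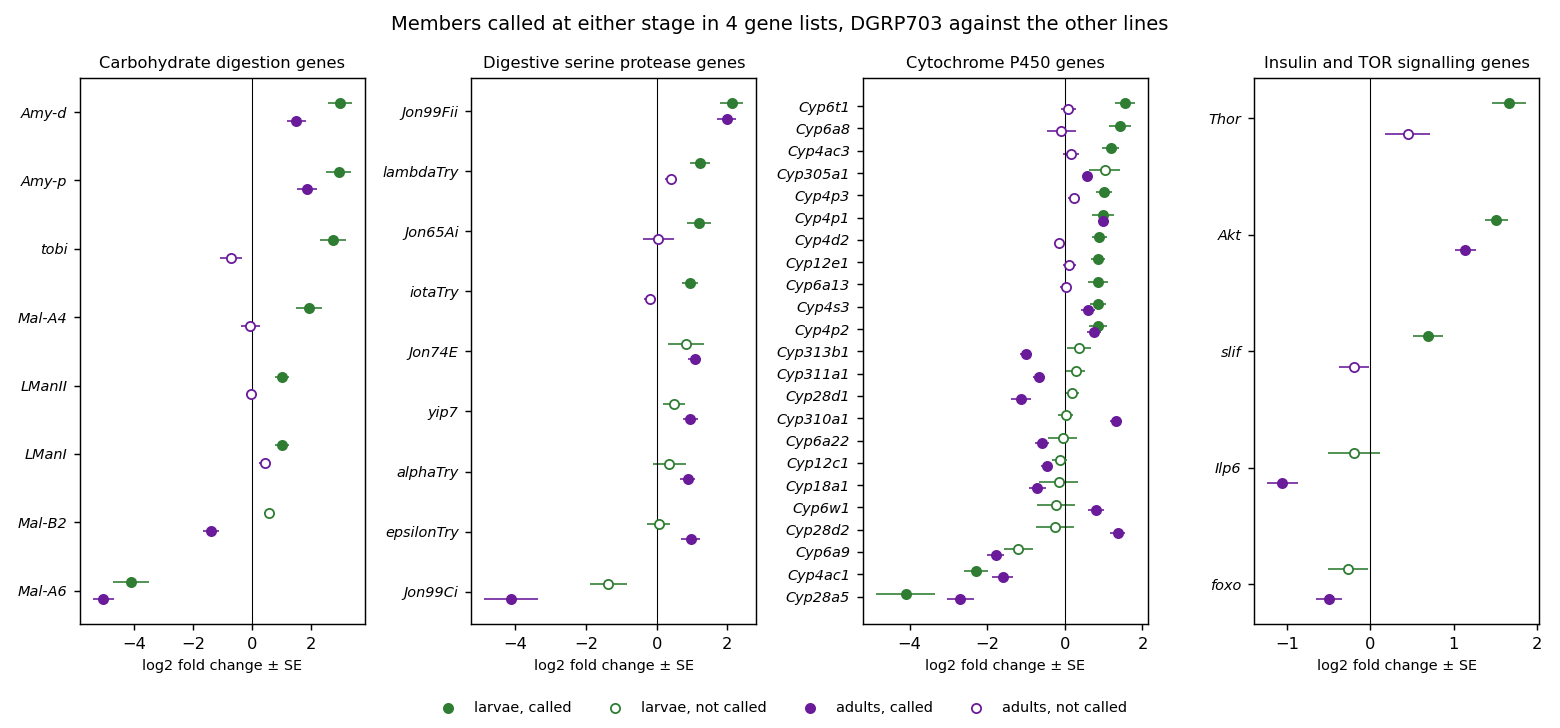
Log2 fold change of DGRP703 against the mean of the other lines, with its standard error, for the members of 4 gene lists called at either stage. Green symbols are larvae and purple symbols adults, filled where called and open where not, with Amy-p at 2.92 and 1.86, Mal-A6 at -4.11 and -5.05, Cyp28a5 at -4.11 and -2.70 and Akt at 1.51 and 1.14.

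Cytochromes P450 differed in both directions. Of 53 genes, 10 were higher and 2 lower in larvae, and 7 were higher and 9 lower in adults, beside 3.9% and 6.53% of all genes called, while the list medians were 0.16 and -0.01. Cyp28a5 had the largest change. DGRP703 larvae had 61.2 and 76.5 CPM against 27.0 to 7152 with a median of 1288, and adults 16.4 and 14.1 CPM against 14.9 to 828 with a median of 92.3. Adult replicate 2 lay just below every other adult library, and the other 3 DGRP703 libraries lay at the low end of a wide range. On the log2 scale the fold change was -4.11 ± 0.77 in larvae (edgeR adjusted p = 0.000354) and -2.70 ± 0.35 in adults (edgeR adjusted p = 1.60e-07), and without larval replicate 2 the adjusted p was 0.0529. Cyp4ac1 was also lower at both stages, with 18.7 and 13.2 CPM against 8.44 to 159 with a median of 83.5 in larvae and 17.0 and 23.7 CPM against 16.2 to 134 with a median of 64.5 in adults. In log2 units its change was -2.28 ± 0.31 and -1.61 ± 0.27 (edgeR adjusted p = 1.24e-06 and 2.74e-05). The neighbouring gene Cyp4ac3, in contrast, was higher in larvae at 1.18 ± 0.21 (edgeR adjusted p = 0.000135) and was not called in adults (0.15 ± 0.21), and its larval adjusted p was 0.0749 without replicate 1.

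The P450 genes Cyp4p1, Cyp4p2 and Cyp4s3 were called higher at both stages, but only the adult call of Cyp4p1 held with either replicate left out. Cyp4p1 and Cyp4p2 lie 210 bases apart on 2R. Cyp4p1 was 0.98 ± 0.28 in larvae and 1.00 ± 0.14 in adults, and Cyp4p2 was 0.84 ± 0.23 and 0.75 ± 0.17. Cyp4s3 was 0.86 ± 0.20 and 0.60 ± 0.19. Where these calls ended, the edgeR adjusted p was 0.171 and 0.593 for Cyp4p1 larvae, 0.0716 and 0.705 for Cyp4p2 larvae and 0.0827 and 0.159 for its adults. It was 0.607 for Cyp4s3 larvae without replicate 2 and 0.386 and 0.415 for its adults. Cyp6a9 had 32.3 and 35.1 CPM in larvae against 7.43 to 259 with a median of 82.4 and 25.1 and 24.7 CPM in adults against 20.0 to 249.5 with a median of 92.0. The adult log2 fold change of Cyp6a9 was -1.78 ± 0.22 (edgeR adjusted p = 8.25e-08), and the larval value of -1.20 ± 0.37 missed the threshold (edgeR adjusted p = 0.0524). It overlaps Cyp6a19 on the opposite strand. Cyp18a1, which inactivates the steroid hormone ecdysone, was -0.71 ± 0.22 in adults (edgeR adjusted p = 0.0368). That call ended without replicate 1 (0.364) or replicate 2 (0.375). Cyp4g1, the most abundant of the list and needed for the waterproofing hydrocarbons of the skin, was not called, with 22940.0 and 28334 CPM in DGRP703 adults against 17594 to 50606 with a median of 29609.

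Glutathione S-transferases join glutathione to foreign compounds, and UDP-glycosyltransferases join sugars to them. Of 19 glutathione S-transferase genes, 1 was lower in larvae and none higher, and in adults 1 was higher and 2 lower. Of all genes, 3.9% were called in larvae and 6.53% in adults. GstO3 was lower at both stages, with 21.2 and 25.9 CPM against 12.6 to 234 with a median of 119 in larvae and 14.9 and 16.4 CPM against 13.8 to 209.8 with a median of 100.1 in adults. For this gene the log2 fold change was -1.81 ± 0.43 and -2.30 ± 0.22 (edgeR adjusted p = 0.00591 and 4.44e-11). The larval call ended without replicate 1 (0.159) or replicate 2 (0.186), while the adult call held. GstE10 was 0.81 ± 0.14 in adults (edgeR adjusted p = 0.000102, and 0.0918 without replicate 2). It overlaps GstE1 on the opposite strand.

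Of 18 UDP-glycosyltransferase genes, 3 were higher and none lower in larvae, and 3 were higher and 2 lower in adults. The share of all genes called was 3.9% in larvae and 6.53% in adults. Ugt36A1 was higher at both stages, with 62.0 and 67.5 CPM against 8.02 to 90.1 with a median of 19.8 in larvae and 46.5 and 49.9 CPM against 10.2 to 50.2 with a median of 20.4 in adults. The DGRP703 values were near the top of the other lines without leaving their range. Against the mean line, the log2 fold change was 1.69 ± 0.17 and 1.24 ± 0.12 (edgeR adjusted p = 7.18e-10 and 6.59e-11). It overlaps CG15418 on the opposite strand. Ugt303A1 was called higher in larvae and not in adults (0.78 ± 0.19, edgeR adjusted p = 0.00996), and the call ended without replicate 1 (0.248) or replicate 2 (0.178).

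Of 27 genes of insulin and TOR signalling, 3 were higher and none lower in larvae, and 1 was higher and 2 lower in adults, beside 3.9% and 6.53% of all genes called. Beside Akt, the larval genes were Thor and slif. Thor encodes the translation repressor 4E-BP, whose gene is a target of the transcription factor FOXO. It had 1429.6 and 665 CPM in larvae against 24.0 to 854 with a median of 334, and 522 and 504 CPM in adults against 51.1 to 709 with a median of 402. The larval replicates of Thor differed by more than 2-fold, and only replicate 1 lay above all other lines. Fitted to the counts, the log2 fold change was 1.66 ± 0.21 in larvae (edgeR adjusted p = 1.23e-07) and 0.45 ± 0.27 in adults, where it was not called. Without replicate 1 the larval value was 1.00 with an adjusted p of 0.0658. The amino acid transporter gene slif was 0.69 ± 0.18 in larvae (edgeR adjusted p = 0.0181, and 0.315 or 0.218 with a replicate left out).

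In adults the lower genes of this pathway were Ilp6 and foxo. Ilp6 encodes an insulin-like peptide made largely by the fat body. DGRP703 adults had 10.1 and 11.8 CPM of Ilp6 against 10.7 to 56.3 with a median of 21.7, so that replicate 1 lay below every other library. The log2 fold change of Ilp6 was -1.06 ± 0.18 in adults (edgeR adjusted p = 6.68e-05) and -0.19 ± 0.31 in larvae, where replicates had 47.5 and 18.1 CPM and no call was made. The adult value of foxo was -0.49 ± 0.16 (edgeR adjusted p = 0.0452, and 0.146 or 0.743 with a replicate left out). The remaining 24 genes of the list at each stage did not pass the test, and the list medians were -0.11 and -0.09.

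CG12057, CG10943 and Rdh1 were also among the 71 genes, the first and the second higher and the third lower. CG12057 had 4826 and 2908 CPM in larvae against 19.4 to 3581 with a median of 879 and 269 and 175 CPM in adults against 5.78 to 348 with a median of 123. On the log2 scale its change was 2.45 ± 0.40 and 1.22 ± 0.36 (edgeR adjusted p = 4.92e-05 and 0.0288), and the larval call ended without replicate 1 (0.065) and the adult call without either (0.523 and 0.155). CG10943 was 1.24 ± 0.32 and 1.38 ± 0.41, and neither call survived the loss of either replicate, with adjusted p from 0.146 to 0.469. Rdh1, named as a retinol dehydrogenase, had 27.5 and 47.7 CPM in larvae against 19.0 to 411 with a median of 142 and 14.9 and 15.9 CPM in adults against 6.43 to 105 with a median of 53.0. Its log2 fold change was -1.56 ± 0.33 and -1.36 ± 0.23 (edgeR adjusted p = 0.00162 and 4.22e-05), and without replicate 1 the larval adjusted p was 0.165. It overlaps DCTN4-p62 on the opposite strand.

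Prat2, which encodes the enzyme of the first step of purine synthesis, was the only gene called in opposite directions. DGRP703 larvae had 143 and 84.1 CPM against 8.49 to 139.9 with a median of 43.9, and adults 72.9 and 130.4 CPM against 82.6 to 368 with a median of 174. In log2 units, the change was 1.29 ± 0.38 in larvae and -0.76 ± 0.24 in adults (edgeR adjusted p = 0.0407 and 0.0385), a difference of -2.07 ± 0.51 (edgeR adjusted p = 0.0146). The replicates differed widely at both stages. Without replicate 1 the adjusted p was 0.492 in larvae and 0.639 in adults, and without replicate 2 it was 0.195 in larvae.

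Among the 38 genes that differed in larvae, not in adults, with a called difference between stages, 29 were higher and 9 lower. CG32647 had the largest change. It had 72.1 and 91.5 CPM in DGRP703 larvae against 1.96 to 23.7 with a median of 6.54, and 140.3 and 144 CPM in adults against 67.7 to 305 with a median of 163. The larval libraries lay well above every other larval library, while the adults lay near the median of the adult lines. The log2 fold change was 3.58 ± 0.15 in larvae (edgeR adjusted p = 6.61e-23) and -0.21 ± 0.27 in adults, a difference of -3.80 ± 0.38 (edgeR adjusted p = 4.37e-12). It overlaps Agpat1 on the opposite strand. The gene tobi, an alpha-glucosidase gene known as a target of insulin and glucagon-like signals in the fly, had 242 and 393 CPM in larvae against 1.26 to 1478 with a median of 45.5, and 421 and 426 CPM in adults against 117 to 4856 with a median of 607. Relative to the mean line, its log2 fold change was 2.72 ± 0.44 in larvae and -0.73 ± 0.37 in adults, a difference of -3.45 ± 0.77 (edgeR adjusted p = 0.0052). The larval adjusted p of tobi was 3.82e-05, and 0.108 without replicate 2.

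CDase, which encodes a ceramidase of sphingolipid breakdown, had 177 and 241 CPM in larvae, above every other larval library (16.3 to 151 with a median of 73.3). Its adults had 54.9 and 56.1 CPM, at the median of the others (36.6 to 97.3 with a median of 57.0). The larval log2 fold change was 1.57 ± 0.23 (edgeR adjusted p = 4.25e-06) and the difference between stages -1.64 ± 0.30 (edgeR adjusted p = 0.000345). CG9717 and the P450 gene Cyp6t1 had larval log2 fold changes of 1.61 ± 0.23 and 1.55 ± 0.25 and adult values of -0.08 ± 0.14 and 0.09 ± 0.20. The larval libraries had 313 and 225 CPM for CG9717 against 4.75 to 249 with a median of 88.4, so that replicate 1 lay above every other library. For Cyp6t1 they had 64.8 and 58.1 CPM against 3.67 to 82.8 with a median of 21.9, inside the range.

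The lower genes in larvae were led by Had2, with 6.77 and 5.87 CPM in DGRP703, below all other larval libraries (7.62 to 101 with a median of 32.2). In adults Had2 had 8.00 and 10.2 CPM, in the middle of the others (2.79 to 16.6 with a median of 8.34). On the log2 scale the fold change was -2.30 ± 0.34 in larvae (edgeR adjusted p = 5.31e-06) and 0.18 ± 0.30 in adults, a difference of 2.47 ± 0.45 (edgeR adjusted p = 0.000333). CG8671 was also below all other larval libraries, with 26.2 and 21.7 CPM against 43.8 to 101 with a median of 63.5, and in adults it had 75.4 and 74.6 CPM against 60.0 to 138 with a median of 82.5. Its larval log2 fold change was -1.43 ± 0.18 (edgeR adjusted p = 2.15e-07). Agps, an enzyme of ether lipid synthesis, had 2.56 and 3.47 CPM in larvae against 3.30 to 12.8 with a median of 7.39, a log2 fold change of -1.25 ± 0.25 (edgeR adjusted p = 0.000906). The alkaline phosphatase gene Alp4, a gene of the renal tubules, was -1.64 ± 0.37 in larvae, with 44.4 and 50.7 CPM against 18.1 to 409 with a median of 160.2. CG31496 was -1.47 ± 0.35, with replicates at 17.3 and 8.60 CPM. Without replicate 1 the larval adjusted p was 0.0659 for Agps and 0.117 for Alp4, and without replicate 2 it was 0.142 for Alp4 and 0.588 for CG31496.

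Among the 43 genes that differed in adults, not in larvae, with a called difference between stages, 20 were higher and 23 lower. The gene ft encodes the giant cadherin Fat, which acts in tissue growth and planar polarity. Its DGRP703 adults had 33.1 and 32.7 CPM, above every other adult library (3.43 to 21.6 with a median of 9.33), and its larvae 23.3 and 26.1 CPM, inside the range of the others (14.1 to 59.6 with a median of 28.8). Against the mean line, the log2 fold change was 1.82 ± 0.21 in adults (edgeR adjusted p = 6.29e-09) and -0.23 ± 0.27 in larvae, a difference of 2.04 ± 0.38 (edgeR adjusted p = 0.00035). For ihog, a co-receptor of the Hedgehog signal, DGRP703 adults had 15.8 and 15.5 CPM against 2.74 to 15.3 with a median of 5.66. They lay only just above the other libraries, since DGRP783 had 15.3 and 12.7 CPM and a library of DGRP59 had 14.7 CPM. In DGRP703 larvae ihog had 24.4 and 16.9 CPM, inside the range of the others (12.0 to 52.7 with a median of 26.1). Its adult log2 fold change was 1.42 ± 0.15 (edgeR adjusted p = 1.00e-09). CG10182, Cyp310a1 and Gem3 followed, with adult log2 fold changes of 1.73 ± 0.34, 1.32 ± 0.16 and 1.31 ± 0.12. Gem3, a helicase of the complex that assembles splicing particles, had 108 and 122 CPM in adults against 15.0 to 121 with a median of 45.1. The adult call of CG10182 ended without replicate 2 (edgeR adjusted p = 0.0586).

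Of the 43 adult genes the largest change was that of ninaD, a scavenger receptor needed to take up the carotenoids from which the visual pigment is made. DGRP703 adults had 3.35 and 4.03 CPM against 1.60 to 289 with a median of 59.5, and larvae 408 and 368 CPM against 52.9 to 783 with a median of 295. The adults lay near the lowest of the lines, and the larvae above the median. Fitted to the counts, the log2 fold change was -3.69 ± 0.48 in adults (edgeR adjusted p = 1.96e-07) and 0.44 ± 0.36 in larvae, a difference of -4.14 ± 0.60 (edgeR adjusted p = 2.08e-06). Obp99b, an odorant-binding protein gene abundant in these larvae, had 9.45 and 7.48 CPM in DGRP703 adults against 5.73 to 462 with a median of 44.7, a log2 fold change of -2.60 ± 0.84 (edgeR adjusted p = 0.0488). The adult call of Obp99b ended without replicate 1 (0.3) or replicate 2 (0.559).

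Ugt49B1, a UDP-glycosyltransferase gene, had 34.2 and 40.3 CPM in adults against 14.8 to 572 with a median of 153, and 74.3 and 107 CPM in larvae against 32.2 to 511 with a median of 87.9. Its adult log2 fold change was -2.06 ± 0.23 (edgeR adjusted p = 3.65e-09) and the difference between stages -1.85 ± 0.33 (edgeR adjusted p = 0.000238). CG10799 and CG11686 lay below every other adult library, with 15.4 and 13.4 CPM against 16.8 to 144 with a median of 61.0 and 10.6 and 12.9 CPM against 14.0 to 94.3 with a median of 39.1. Their adult log2 fold changes were -1.99 ± 0.21 and -1.80 ± 0.28 (edgeR adjusted p = 1.63e-09 and 6.10e-06), and their larval values, -0.76 ± 0.30 and -0.50 ± 0.20, had the same sign without passing the test. Of the 96 called differences between stages, those of Aef1, CG32647 and ninaD were still called whichever replicate was left out. Without replicate 1 there were 21 called differences, and without replicate 2 there were 5.

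**Figure D4:**
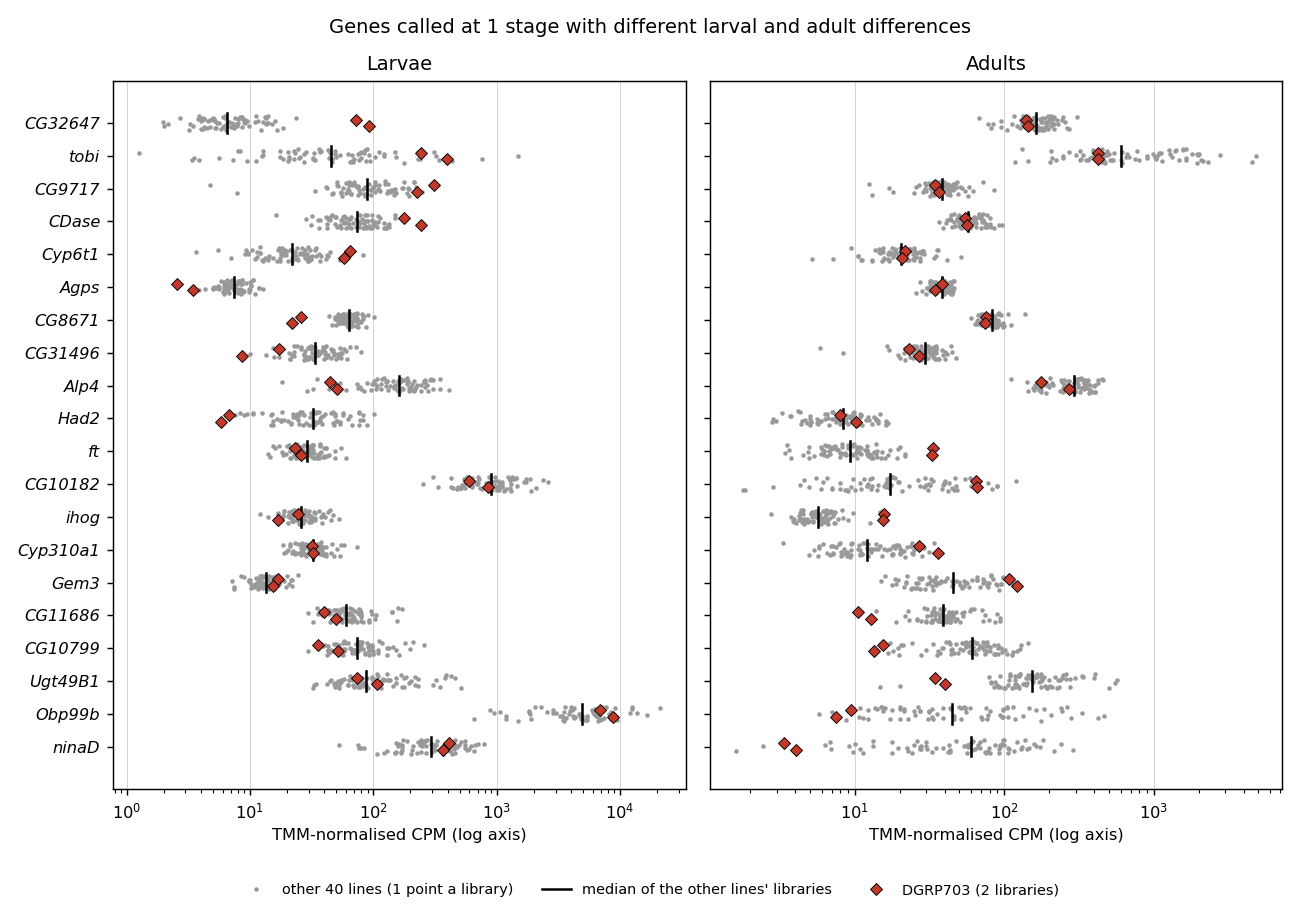
Level of 20 genes called at 1 stage with a called difference between the larval and the adult effect, in TMM-normalised CPM on a log axis, for larvae (left) and adults (right). Each grey point is 1 library of the other 40 lines, the bar is their median and the diamonds are DGRP703, which in larvae lies apart for CG32647 at 72.1 and 91.5 CPM and in adults for ft at 33.1 and 32.7 CPM.

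Other metabolic lists held few calls, and the share of all genes called was itself 3.9% in larvae and 6.53% in adults. Of 30 genes of lipid storage and mobilisation, 1 was higher in larvae and 1 lower in adults. Mcad, an enzyme of fatty acid oxidation, was 0.57 ± 0.16 in larvae (edgeR adjusted p = 0.0317). Lsd-1, the perilipin on lipid droplets, was -0.999 ± 0.28 in adults (edgeR adjusted p = 0.019), with 148 and 176 CPM against 131 to 665 with a median of 311, and its difference between stages was called (-1.17 ± 0.33, edgeR adjusted p = 0.047). Neither the Mcad nor the Lsd-1 call survived the loss of either replicate, with adjusted p from 0.169 to 0.631 and from 0.218 to 0.316. Of 17 antioxidant genes, 1 was higher and 1 lower in larvae and 1 lower in adults, the lower one being Sod3. MsrA, which repairs oxidised methionine, was 1.44 ± 0.34 in larvae with 174 and 203 CPM against 20.9 to 215 with a median of 70.5 (edgeR adjusted p = 0.00571, and 0.0773 or 0.361 with a replicate left out). None of 15 heat shock and 13 glycolysis genes was called at either stage. Of the 15 heat shock genes, 1 lay above 0 in larvae and 10 in adults, with medians of -0.22 and 0.08. Of the 13 glycolysis genes, 12 lay above 0 in larvae and 3 in adults, with medians of 0.41 and -0.15.

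Of 37 immune genes of the Toll and Imd pathways, 1 was higher and 1 lower in larvae and 2 were lower in adults. Over all genes the share called was 3.9% in larvae and 6.53% in adults. Fadd, an adaptor of the Imd pathway, was lower at both stages, with 7.37 and 7.00 CPM against 5.55 to 21.2 with a median of 13.7 in larvae and 6.25 and 6.97 CPM against 6.72 to 22.5 with a median of 11.2 in adults. In log2 units its change was -0.95 ± 0.17 and -0.75 ± 0.16 (edgeR adjusted p = 0.00026 and 0.00156). The larval call ended without replicate 2 (0.0956), and the adult call without either (0.121 and 0.0629). Its partner gene imd was -0.65 ± 0.12 in adults (edgeR adjusted p = 0.000131) and -0.17 ± 0.11 in larvae, and it overlaps GstE9 on the opposite strand. PGRP-LB, an enzyme that degrades bacterial peptidoglycan and restrains the pathway, was 0.70 ± 0.15 in larvae (edgeR adjusted p = 0.00298, and 0.384 without replicate 1).

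Large complexes had few single calls, beside 3.9% of all genes called in larvae and 6.53% in adults. Of 85 cytoplasmic ribosomal protein genes, 2 were called higher in larvae, RpL39 at 0.70 ± 0.19 and RpLP2 at 0.65 ± 0.18, and none in adults. The list median was 0.31 in larvae, where 80 members lay above 0, and -0.24 in adults, where 4 did. Neither single call survived the loss of a replicate (edgeR adjusted p from 0.057 to 0.764). Of 71 mitochondrial ribosomal protein genes, mRpS31 alone was called. It had 63.5 and 81.2 CPM in larvae, above every other larval library (23.6 to 53.8 with a median of 33.8), and 41.5 and 36.6 CPM in adults against 23.2 to 48.3 with a median of 31.2. For this gene the log2 fold change was 1.06 ± 0.15 in larvae (edgeR adjusted p = 2.14e-06) and 0.27 ± 0.11 in adults. It overlaps mib1 on the opposite strand. Of 63 genes of oxidative phosphorylation, ND-15 was called in larvae (0.58 ± 0.17), a change that replicate 2 carried (0.20 without it). All 63 lay above 0 in larvae with a median of 0.39, against -0.02 over all genes. Their summed larval level was 21938 CPM in replicate 1 and 29696 in replicate 2. The other lines had 12921 to 39780 CPM with a median of 19780, so replicate 1 was much nearer that median. Of 32 proteasome genes, Prosbeta7 was called in larvae (0.52 ± 0.14) and Rpt3R in adults (0.40 ± 0.12), and neither survived the loss of either replicate. All 32 lay above 0 in larvae and 30 in adults, with medians of 0.27 and 0.14. Their summed level was 6964 and 6492 CPM in DGRP703 larvae, against 4643 to 6966 CPM in the other lines. Rpt3R overlaps Alg12 on the opposite strand.

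Summed levels of the muscle, testis and ovary markers were within the range of the other lines. None of 22 sarcomere and 23 synaptic genes was called at either stage, beside 3.9% and 6.53% of all genes called. All 22 sarcomere genes nevertheless lay above 0 in larvae, with a median log2 fold change of 0.51, against -0.03 in adults. Of the 23 synaptic genes, 6 lay above 0 in larvae and 11 in adults. The summed level of the sarcomere genes was 44240 and 47372 CPM in DGRP703 larvae, in the upper part of the 13963 to 59741 CPM of the other lines, and 20037 and 17068 CPM in adults, against 12762 to 25658. The sums of 12 male and testis genes in DGRP703 adults were 10389 and 11201 CPM against 5774 to 12213 with a median of 8735. Those of 25 female and ovary genes were 4556 and 4545 CPM against 2899 to 6244 with a median of 4088. In adults 9 of the 12 male and 12 of the 25 female genes lay above 0, with medians of 0.34 and -0.01. In larvae 5 and 6 did, with medians of -0.07 and -0.15. Single calls in adults were topi, a regulator of meiosis in testis, at 0.46 ± 0.15, and orb, an RNA-binding protein of the oocyte, at 0.49 ± 0.16. Neither survived the loss of either replicate, with edgeR adjusted p from 0.239 to 0.64 for orb and from 0.387 to 0.433 for topi. Of 12 piRNA pathway genes, the helicase gene armi was 0.84 ± 0.13 in adults (edgeR adjusted p = 1.71e-05) and -0.21 ± 0.23 in larvae, with a called difference. Of 3 genes of the larval fat body and late larva, Ag5r2 was called higher at both stages, at 1.01 ± 0.28 and 0.99 ± 0.28, and neither call held without either replicate. Obp99b of the same list was called lower in adults, a call that also ended without either replicate. The list median was 0.73 in larvae and -0.22 in adults. Whether body composition had a part in any of the called genes was not tested.

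The remaining lists had at most 1 call at a stage, beside 3.9% of all genes called in larvae and 6.53% in adults. Of 19 genes of ecdysone and juvenile hormone, Cyp18a1 was called in adults, and of 7 phototransduction genes, ninaD was. The chitin-binding gene obst-A of the peritrophic matrix and mucin list was 1.28 ± 0.27 in adults (edgeR adjusted p = 0.00104, and 0.144 without replicate 1). Of 16 circadian clock genes, the clock-controlled gene to was -0.89 ± 0.24 in adults (edgeR adjusted p = 0.016), and the call ended without either replicate. None of 25 DNA replication, 8 dosage compensation and 4 cuticle protein genes was called. In larvae 3, 1 and 4 of them lay above 0, and in adults 19, 2 and 4. Of the 8 peritrophic matrix genes, Peritrophin-15a was called at neither stage, but its larval and adult values, 0.49 ± 0.22 and -0.88 ± 0.31, differed from each other (edgeR adjusted p = 0.0346).

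The differing genes lay on the X and on all large autosome arms, in unequal shares. In larvae 3.59% of 1227 X-linked genes were called, and between 3.73% and 4.71% of the genes of each large autosome arm. In adults 3.67% of X-linked genes were called, against 6.58% on 2L, 7.89% on 2R, 6.89% on 3L and 7.37% on 3R. Of the 71 genes that differed at both stages, 23 lay on 2R, which is 1.53% of its 1508 tested genes. That share was 0.733% on the X and between 0.756% and 0.935% on the other large autosome arms. Of 67 genes of chromosome 4, none was called in larvae and 1 in adults. Among the 68 genes of this set with a tested neighbour within 20 kb, 7 had a neighbour in the set. These were the pair Amy-p and Amy-d, the pair Cyp4p1 and Cyp4p2, and the 3 kinase-like genes CG31370, CG10560 and CG11892. Counted from each gene of the set, 8 of 351 neighbours were in the set, beside 0.958% of all genes. Whether the set is clustered was not tested.

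Libraries were sequenced in numbered pools, and each DGRP703 library was in a different pool, so its difference was also taken from the other lines of that pool. Pool 3 held 2 other libraries beside larval replicate 1, pool 4 held 6 beside replicate 2, and pools 13 and 15 held 12 each beside the adult replicates. Of the 71 genes that differed at both stages, 68 had the same direction in all 4 pools. The same held in both pools for 274 of the 289 larval and all 484 adult genes. These genes were called from the same DGRP703 libraries, and the other libraries of a pool were part of that comparison. The agreement in direction is therefore not a separate check of the pools. Within pools, the log2 difference of Aef1 was 4.24 and 4.09 in larvae and 2.47 and 2.27 in adults, and that of Mal-A6 was -4.25 and -4.48 in larvae and -5.14 and -5.11 in adults. With the pool number as a factor, 126 genes were called in larvae, 411 in adults and 41 at both stages, 38 of them among the 71.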

How the data were processed

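RNA was measured in 164 libraries of whole larvae and adults of 41 inbred lines, with 2 replicates per line and stage. The authors deposited 1 table of raw counts with a row for each gene. FastQC, Trimmomatic, STAR, BDGP6 and dm6 appear without version numbers per the submitters' processing notes. The kit was stranded per the labels' protocols, but the counting strand is not given in the sources used here. The lowest value among its 7414 genes is 11 counts, so a gene silent in any library is not analysed here. Names and positions come from the Ensembl BDGP6 annotation, which held 7349 of the identifiers. Identical columns of DGRP787 and DGRP491 larvae were left out.

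Counts were fitted in edgeR 4.0.16 (R 4.3.3) with TMM factors and line as the term within each stage. The contrast was DGRP703 minus the unweighted mean of the other 40 lines, tested with the quasi-likelihood F test and Benjamini-Hochberg adjustment over 7414 genes at a threshold of 0.05. The difference between stages was tested as an interaction in 1 fit of 162 libraries. CPM values include the TMM factors, and log2 CPM used a prior count of 2. The scripts were tested on simulated data. Labels call the replicates biological and give no pairing by replicate number, and the main fit treats them as unpaired. Alternatives were other scaling factors, DESeq2 1.42.0, limma-trend (limma 3.58.1), a mean of at least 10 CPM, a replicate block, pool number, a fit of 2 groups without line, roX1 as a covariate, and libraries left out.

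The line, the 28 gene lists and the tests were chosen with earlier results of these data known. Genes named by rule had at least 5 CPM: the 8 with the largest change per direction at both stages, 5 per direction at 1 stage with a called interaction, and in each list the 2 with the largest called change per stage and the most abundant. Genes that lay outside all other libraries at both stages, that stayed called with either replicate left out, their neighbours and other called list members were named after their values were seen.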

Additional observations from a re-analysis of the deposited data

Results flagged for a closer look

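For 31 of the named genes the larval and the adult difference of DGRP703 from the other lines were unequal by a test of that inequality itself (edgeR's quasi-likelihood test of the interaction, Benjamini-Hochberg adjusted). The values below are the adult log2 fold change minus the larval one.

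Genes whose adult value was lower than the larval one were ninaD (-4.14), CG32647 (-3.80), tobi (-3.45), Obp99b (-3.34), Prat2 (-2.07), Mal-B2 (-1.97), Aef1 (-1.91), Ugt49B1 (-1.85), CG15695 (-1.74), Tsp42Ej (-1.70), CG9717 (-1.70), CDase (-1.64), Cyp6t1 (-1.47), Mdr49 (-1.38), Peritrophin-15a (-1.38), CG11686 (-1.30), CG10799 (-1.23), Lsd-1 (-1.17), mRpS31 (-0.80) and su(f) (-0.55). In Aef1, su(f), CG15695, Tsp42Ej and Mdr49 this is a smaller excess in adults, since these genes were higher at both stages.

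Genes whose adult value was higher than the larval one were Had2 (2.47), ft (2.04), CG10182 (2.00), ihog (1.79), Alp4 (1.35), CG8671 (1.29), Cyp310a1 (1.29), CG31496 (1.27), Agps (1.18), Gem3 (1.07) and armi (1.05). Of all these genes, Aef1, CG32647 and ninaD kept the call whichever DGRP703 replicate was left out.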

How the results depend on the processing

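The fit of 2 groups without line called 35 genes in larvae, 33 in adults, 4 differences between stages and 12 genes at both stages. All were among those of the report. The error of this fit is the spread between single libraries, within and between lines. It counts replicates of a line as separate samples, so it is not a test against the spread between lines alone. With pool number as a factor 126 genes were called in larvae, 111 of them shared, and 41 at both stages. With roX1 as a covariate 742 were called in adults, 483 of them shared. Leaving out a DGRP703 replicate gave 51 to 155 genes in larvae, 96 to 146 in adults, 5 to 21 differences and 22 to 26 genes at both stages; the lone library is then assumed to vary like replicates of the other lines. By line means, DGRP703 was first or last of 41 lines for 284 genes in larvae and 262 in adults. DESeq2 called 353 genes in larvae and 546 in adults. Of the genes that limma-trend called in larvae, 63.6% were higher, in place of 75.4%. In adults limma-trend called 196 genes higher and 196 lower, in place of 289 and 195, and at both stages 28 and 28. The labels give no pairing of samples by replicate number, and the main fit has no replicate term. Replicate differences of the other lines correlated with those of DGRP703 at a median r of 0.03 in larvae and 0.16 in adults. The r was above 0.1 in 17 of 38 lines in larvae and 23 of 40 in adults. With the replicate block 288, 528 and 102 genes were called in larvae, adults and the difference, and 74 at both stages. Under the scaling factors and other tools run, no gene named by rule changed direction where called, but calls were lost. Of 42 larval, 44 adult and 27 difference calls of these genes, limma-trend lost 7, 6 and 3, pool number as a factor 12, 5 and 6, and the fit without line 27, 32 and 23. Without replicate 1 the losses were 16, 16 and 17, and without replicate 2 they were 17, 14 and 24. The cause of these changes was not tested. Larval replicate 1 had the fewest counts of the DGRP703 libraries, and 2 libraries per stage limit the precision of each value.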

Other observations

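Further genes of the 71 are given here after their values were seen. Mdr49, an ABC transporter gene, had 329.9 and 649.9 CPM in DGRP703 larvae against 45.1 to 549 with a median of 98.0, with log2 fold changes of 2.21 ± 0.21 in larvae and 0.84 ± 0.13 in adults. Its adult call ended without replicate 1 (edgeR adjusted p = 0.0601), and it overlaps Sans on the opposite strand. Tsf1, the gene of the iron carrier transferrin, had 3646 and 3040.1 CPM in adults against 314 to 4571 with a median of 1099, with log2 fold changes of 1.21 ± 0.32 in larvae and 1.52 ± 0.34 in adults. No Tsf1 call held with either replicate left out, with edgeR adjusted p of 0.0798 and 0.64 in larvae and 0.146 and 0.0662 in adults. The globin gene glob1 was 1.48 ± 0.34 in larvae, where the adjusted p was 0.501 without replicate 2, and 1.06 ± 0.16 in adults. Vha100-4, a subunit gene of the proton pump of acidic compartments, was 1.50 ± 0.21 and 0.74 ± 0.12. Tsp42Ej, a tetraspanin gene, was 2.20 ± 0.24 and 0.50 ± 0.11, with 38.1 and 49.7 CPM in larvae against 2.42 to 42.4 with a median of 9.34. Its adult adjusted p was 0.24 without replicate 1. CG15695 was 2.73 ± 0.24 and 1.00 ± 0.11, and CG34166 was 1.00 ± 0.29 and 2.42 ± 0.36. The larval call of CG34166 ended without either replicate (0.184 and 0.577).

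On the lower side, Trax, whose product is the partner of the RNA-binding protein translin, had 11.1 and 9.40 CPM in larvae, below every other larval library (18.2 to 44.2 with a median of 28.4), and 11.1 and 11.7 CPM in adults against 11.5 to 36.6 with a median of 23.8. Its log2 fold change was -1.51 ± 0.18 in larvae and -1.03 ± 0.14 in adults. The myosin gene ck was -1.32 ± 0.24 and -0.48 ± 0.14, and the neuropeptide receptor gene Dh31-R was -0.92 ± 0.24 and -0.38 ± 0.12. The edgeR adjusted p of ck was 0.151 in larvae without replicate 2 and 0.242 and 0.438 in adults with a replicate left out. Both Dh31-R calls ended without either replicate, at 0.284 and 0.178 in larvae and 0.113 and 0.792 in adults.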
